A study of Homo sapiens with 9 samples.

Results

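The RNA-binding proteins LIN28A and LIN28B and mRNAs known as targets of the let-7 microRNAs were examined in neural crest-like cells that had been expanded in 3 media. The 10 genes are LIN28A, LIN28B, TRIM71, IGF2BP1, IGF2BP2, IGF2BP3, HMGA1, HMGA2, ARID3A and ARID3B, and all 10 were found by symbol among the 25593 loci of the deposited tables. They were picked because their levels in these libraries were already known to differ between media, so their own values are given as a description, with no test. The cells descended from the established human embryonic line H9, and all had received 10 µM SB431542, an inhibitor of the Nodal, Activin and TGF-β receptors, during 6 days of differentiation. Per the growth protocol, cells with high CD271 and without CD73 were then sorted, whereas the cell type label lists CD73 as present. In F_FSB, cells spent 4 passages in FGF2 with SB431542 and 3 further passages in FGF2 without it. In FSB, cells were kept throughout in 5 to 10 ng/ml FGF2 with 3 to 5 µM SB431542. In F, cells received FGF2 at the same dose and no SB431542 after the sort. Each group had 3 cultures, called biological replicates in the design text, taken at passage 6 to 7 under 5% oxygen. Cells from the start of expansion were not analysed here, so the groups are compared with each other and not with the sorted cells. All cultures derive from 1 cell line.

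The let-7 microRNAs are short RNAs that accumulate as cells differentiate and lower the output of mRNAs that carry matches to their seed. LIN28A and LIN28B bind let-7 precursors and block their maturation, and both are let-7 targets themselves, so each side of the pair can hold the other down. Many other targets, among them the IGF2BP, HMGA and ARID3 genes, are abundant in embryonic and in dividing progenitor cells and scarce in most adult tissues.

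The let-7 family is defined by its seed, bases 2 to 8 of the mature RNA, and 4 of its mature sequences are shown to make the target sites below readable. They come from RefSeq on GRCh38.p14, are written 5′ to 3′ and have the seed in capitals.
hsa-let-7a-5p: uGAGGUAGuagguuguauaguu
hsa-let-7c-5p: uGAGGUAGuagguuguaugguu
hsa-let-7d-5p: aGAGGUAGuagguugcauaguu
hsa-miR-98-5p: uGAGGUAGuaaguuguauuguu
RefSeq held 12 let-7 family loci with 9 distinct mature names, and all of them shared this 1 seed.

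Matches to the seed were searched on the sense strand only of the annotated 3′ UTR of each gene (GENCODE models on GRCh37). The motifs were CTACCTCA (an 8mer), CTACCTC without the final A (a 7mer-m8) and TACCTCA without the leading C (a 7mer-A1), so that no site was counted under more than 1 of them. All 10 genes had at least 1 match and 8 had an 8mer, against 15.8% and 3.74% of 19046 genes with a 3′ UTR. These genes are known as let-7 targets, so the count describes them and is no independent result. TRIM71 had 4 8mers, IGF2BP1 had 3 and LIN28B had 2, while 0.163% of all genes had 2 or more. LIN28A, HMGA2, IGF2BP2, IGF2BP3 and ARID3A had 1 each. ARID3B had 1 7mer-m8 and 4 7mer-A1 matches, and HMGA1 had a single 7mer-m8. The sites below, with the match in capitals, come from the genes whose levels differed most between media. They also come from the 2 HMGA genes, which differed in opposite directions. Further matches in LIN28B, TRIM71, ARID3B and HMGA2 are not shown.
LIN28A, chr1:26753840-26753861, plus strand: cacagcctattgaaCTACCTCA
LIN28B, chr6:105526688-105526709, plus strand: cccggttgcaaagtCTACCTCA
LIN28B, chr6:105529297-105529318, plus strand: tttacagcaaaaggCTACCTCA
TRIM71, chr3:32933461-32933482, plus strand: acattgcttaagtcCTACCTCA
TRIM71, chr3:32933541-32933562, plus strand: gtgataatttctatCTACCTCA
ARID3B, chr15:74890442-74890463, plus strand: tatttcaataaacctCTACCTC
HMGA1, chr6:34213606-34213627, plus strand: tcctctgttcacaaaCTACCTC
HMGA2, chr12:66357079-66357100, plus strand: ccaacgttcgatttCTACCTCA
The locus that the deposited tables give for TRIM71 ends at 32933771 and leaves out its other 8mers, and the locus for ARID3A ends at 972816, before its 8mer at 974512. A match is a stretch of letters and does not show that let-7 bound there, and mature let-7 was not measured in these libraries.

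Levels are FPKM, in which fragment numbers are divided by transcript length and by the mapped fragments of each library. A difference is between group means of log2(FPKM + 1), a scale that understates changes of low genes. Bulk RNA cannot tell fewer cells of a type from less RNA per cell. By a rough estimate, F_FSB replicate 2 had 60.0% of the depth of the deepest library, and all other libraries had 82.2% or more. Of 90 values for the 10 genes, 87 lay inside the interval that Cufflinks lists for them. The other 3, the FSB values of LIN28A, lay just above it. Transcripts listed as overlapping IGF2BP2 and HMGA2 stayed at or below 1.28 FPKM, and the use of strand in quantification is not stated in the sources used here.

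LIN28A, on chromosome 1 at 26737269 to 26756219 (GRCh37), was present in FSB and at or near 0 in both media without SB431542. It had 0.0136, 0.0529 and 0.0239 FPKM in the F_FSB libraries, 78.9, 74.3 and 85.4 FPKM in FSB, and 0.0142, 0.0188 and 0 FPKM in F. Every FSB library was far above every other library, and F_FSB and F overlapped. By the rough depth estimate, those levels correspond to 0.817 to 2.26 fragments per F_FSB library, at least 5052 per FSB library and at most 1.24 per F library. The log2 difference was 6.31 for FSB minus F and -6.29 for F_FSB minus FSB, and no fold is given because the low side holds so few fragments. The size of these differences is set by the pseudocount, and with 0.1 in place of 1 they were 9.49 and -9.27.

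LIN28B, the paralogue of LIN28A, lies on chromosome 6 at 105404923 to 105531206. It had 8.67, 5.06 and 2.31 FPKM in F_FSB, 62.4, 67.7 and 51.4 FPKM in FSB, and 4.30, 0.524 and 0.286 FPKM in F. FSB was again above all other libraries, but LIN28B remained measurable in all of them, unlike LIN28A. Its mean in FSB was 35.5-fold that in F, with 60.5 ± 8.32 against 1.70 ± 2.25 FPKM (SD, n = 3 each), and 11.3-fold that in F_FSB, which had 5.35 ± 3.19 FPKM. F_FSB and F overlapped through F replicate 1, which held 4.30 FPKM and carried the mean in F. Without it that mean was 0.405 FPKM, and the mean in FSB was 149-fold that in F. The F_FSB minus F log2 difference was 1.41 over all libraries, and it ranged from 1.03 without F replicate 3 to 2.05 without F replicate 1. In FSB the paralogues were similarly abundant, with a LIN28A to LIN28B ratio of 1.10 to 1.66, whereas that ratio was at most 0.0105 in F_FSB and at most 0.0360 in F.

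TRIM71, the relative of the nematode let-7 target lin-41, encodes an RNA-binding ubiquitin ligase of embryonic cells and lies on chromosome 3 at 32859510 to 32933771. It had 0.496, 0.0764 and 0 FPKM in F_FSB, 24.2, 20.6 and 25.0 FPKM in FSB, and 0.185, 0 and 0 FPKM in F. Like LIN28A it was near 0 outside FSB, and F_FSB and F overlapped. Its log2 difference was 4.52 for FSB minus F and -4.37 for F_FSB minus FSB, and with a pseudocount of 0.1 these were 7.36 and -6.73.

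ARID3A and ARID3B encode DNA-binding proteins of the AT-rich interaction domain family. ARID3A, on chromosome 19 at 926037 to 972816, had 3.87, 5.76 and 6.40 FPKM in F_FSB, 35.1, 32.6 and 33.8 FPKM in FSB, and 3.50, 6.56 and 4.71 FPKM in F. ARID3B, on chromosome 15 at 74833548 to 74890472, had 1.65, 1.66 and 1.47 FPKM in F_FSB, 20.7, 22.3 and 15.1 FPKM in FSB, and 1.36, 1.43 and 0.955 FPKM in F. In both genes all FSB libraries lay above all others. The mean in FSB was 6.87-fold that in F for ARID3A and 15.5-fold for ARID3B. ARID3B, which has no 8mer but 1 7mer-m8 and 4 7mer-A1 matches, differed more than ARID3A, which has 1 match of each kind. The part of the matches in this was not tested. The lowest ARID3B value in F_FSB lay above the highest in F, at a log2 difference of 0.21, and ARID3A overlapped between those groups.

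**Figure D1:**
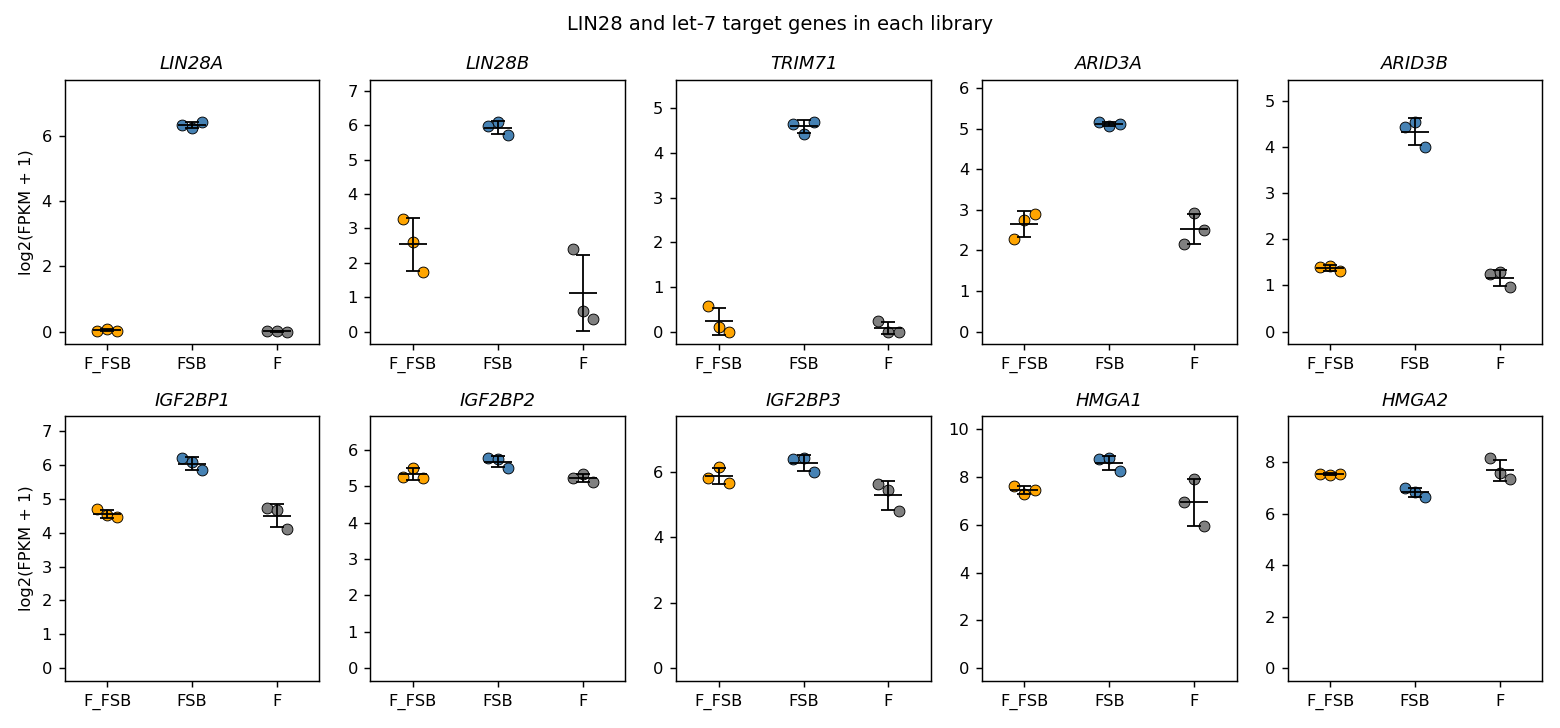
Level of each of the 10 genes in log2(FPKM + 1) (vertical axes, each with its own scale) by medium (horizontal axes), with points for the 3 libraries, a bar for the mean and whiskers for the SD. In LIN28A, LIN28B, TRIM71, ARID3A and ARID3B the FSB points stand well above both other groups, in the IGF2BP genes the gaps are smaller, and in HMGA2 the FSB points are the lowest.

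The IGF2BP genes encode related proteins that bind mRNAs and alter their stability and translation, and they differed in how far they varied with the medium. IGF2BP1, on chromosome 17 at 47074774 to 47133507, had 24.7, 21.9 and 20.9 FPKM in F_FSB, 71.9, 66.9 and 56.0 FPKM in FSB, and 25.6, 24.4 and 16.3 FPKM in F. All FSB libraries were above the rest, and the mean in FSB was 2.94-fold that in F and 2.89-fold that in F_FSB. IGF2BP3, on chromosome 7 at 23349828 to 23509995, had 55.0, 70.0 and 50.1 FPKM in F_FSB, 83.0, 84.2 and 62.3 FPKM in FSB, and 48.8, 42.4 and 26.7 FPKM in F. Its mean in FSB was 1.95-fold that in F without overlap, while F_FSB overlapped FSB and lay above F, at a log2 difference of 0.59 for F_FSB minus F. IGF2BP2, on chromosome 3 at 185361527 to 185542827, varied least, with 36.8, 44.6 and 36.2 FPKM in F_FSB, 53.3, 52.7 and 44.2 FPKM in FSB, and 36.2, 39.4 and 33.9 FPKM in F. Its mean in FSB was 1.37-fold that in F, and F_FSB overlapped both other groups. The sum of the 3 genes was 107 to 137 FPKM in F_FSB, 163 to 208 FPKM in FSB and 77.0 to 111 FPKM in F, so these mRNAs stayed abundant in every medium.

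HMGA1 and HMGA2 encode architectural proteins that bind AT-rich DNA in chromatin, and they differed between media in opposite directions. HMGA1, on chromosome 6 at 34204577 to 34214008, had 194, 156 and 174 FPKM in F_FSB, 431, 436 and 305 FPKM in FSB, and 124, 238 and 60.2 FPKM in F. HMGA2, on chromosome 12 at 66218240 to 66360071, had 188, 181 and 186 FPKM in F_FSB, 127, 114 and 98.9 FPKM in FSB, and 283, 191 and 161 FPKM in F. The FSB libraries were the 3 highest for HMGA1 and the 3 lowest for HMGA2. The log2 difference for FSB minus F was 1.66 for HMGA1 and -0.86 for HMGA2, and for F_FSB minus FSB it was -1.14 and 0.71. HMGA2, often cited as a let-7 target, has 7 seed matches, the 8mer shown above among them, and it was the only 1 of the 10 genes with a lower level in FSB than in F. The HMGA1 to HMGA2 ratio was 0.857 to 1.03 in F_FSB, 3.08 to 3.83 in FSB and 0.374 to 1.25 in F, and the range in F came largely from HMGA1. The HMGA1 difference for FSB minus F was 2.14 without F replicate 2, the highest of that group, and 1.16 without F replicate 3, the lowest.

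Against F, then, 9 of the 10 genes were higher in FSB without overlap of the libraries and 1, HMGA2, was lower. Over all 13216 genes tested, 38.7% were higher and 19.2% were lower without overlap, and since the genes were picked on this contrast nothing is read from their count. The median log2 difference of the 10 genes was 2.12, beside 0.14 for all genes tested. For F_FSB minus FSB, 7 of the 10 were lower and 1 higher without overlap and 2 overlapped, where 36.6% of all genes were lower and 19.2% higher. The median was -1.98, beside -0.13 for all genes. Both comparisons use the FSB libraries. Neither direction changed for any of the 10 genes under median-ratio, quantile or equal-sum scaling of the libraries.

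For F_FSB minus F, 2 of the 10 genes, IGF2BP3 and ARID3B, were higher without overlap, where 6.28% of all genes were higher, and the other 8 overlapped. The median log2 difference was 0.13, beside -0.00 for all genes, and it was 0.28 and 0.45 with pseudocounts of 0.1 and 0.01. The signs for IGF2BP1, IGF2BP2 and ARID3A in this comparison turned under equal-sum scaling. The FPKM sum was 506146 in F_FSB replicate 2, with 111389 from 1 locus, MIR4461, and 361026 to 395596 in the other libraries. That 1 locus thus lowered all other values of F_FSB replicate 2 under equal-sum scaling. Leaving out 1 library turned the sign for TRIM71 (-0.03 without F_FSB replicate 1), HMGA2 (0.08 without F replicate 1), IGF2BP1 (-0.15 without F replicate 3 and -0.02 without F_FSB replicate 1) and ARID3A (-0.07 without F replicate 1 and -0.01 without F_FSB replicate 3). As a share of the mean in FSB, the level in F_FSB was 8.23% for ARID3B, 8.84% for LIN28B and 15.8% for ARID3A, and none is given for LIN28A and TRIM71, which were near 0 there. It was 34.7% for IGF2BP1, 44.8% for HMGA1, 76.3% for IGF2BP3 and 78.3% for IGF2BP2, and for HMGA2 it was 163%. The corresponding levels in F were 2.82% for LIN28B and 51.4% for IGF2BP3, the genes for which the F_FSB mean stood furthest above that in F among those above 1 FPKM in both groups. Without F replicate 1 the level of LIN28B in F was 0.669% of that in FSB.

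**Figure D2:**
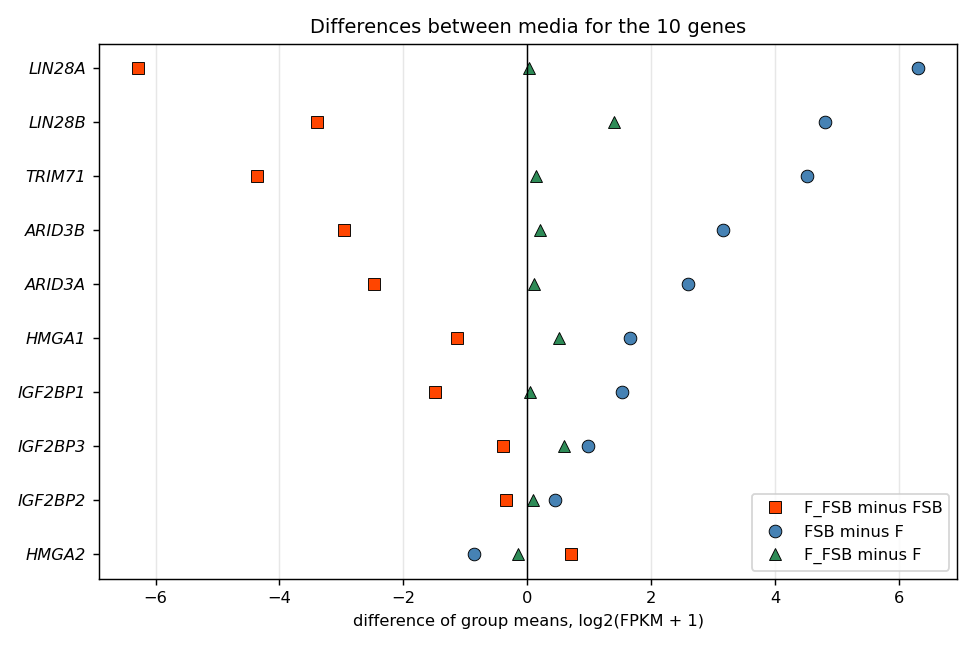
Difference of group means on the log2(FPKM + 1) scale (horizontal axis) for each gene (rows), with squares for F_FSB minus FSB, circles for FSB minus F and triangles for F_FSB minus F. Squares and circles lie on opposite sides of 0 for each gene and share the FSB libraries, HMGA2 has them the other way round, and the triangles lie furthest from 0 for LIN28B at 1.41, IGF2BP3 at 0.59 and HMGA1 at 0.52.

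Within each group, 1 library was often the lowest. F replicate 3 was lowest, ties included, for 9 of the 10 genes in F, and FSB replicate 3 was lowest for 7 of the 10 in FSB, where LIN28A and TRIM71 were instead at their highest. In F_FSB, replicate 3 was lowest for 6 of the 10. Whether replicate numbers link cultures across media was not settled.

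Other let-7 targets, a list of 36 genes from textbook and published target lists, were tested with limma and Benjamini-Hochberg (BH) adjustment over all 13216 genes. Of the 36, 16 were higher and 2 lower in FSB than in F, where 28.5% of all genes were higher and 13.4% lower, and 18 did not pass. The median log2 difference was 0.40, beside 0.14 for all genes. The leading genes included IGDCC3, a neogenin-related surface protein, at 74.2 ± 16.0 FPKM in FSB and 0.988 ± 0.423 FPKM in F (SD, n = 3 each; log2 difference 5.24, SE 0.42, BH-adjusted p = 0.000155 by limma). MYCN, a growth-promoting transcription factor, averaged 17.6 ± 2.50 FPKM in FSB and 1.44 ± 0.480 FPKM in F (2.94, SE 0.18, BH-adjusted p = 5.1e-05 by limma). PRTG, a relative of IGDCC3, and NR6A1, an orphan nuclear receptor of early embryos, were also higher, by 3.86 and 2.51. The cyclin gene CCND2, the phosphatase gene CDC25A, the kinase gene CDK6 and SALL4, a transcription factor of embryonic stem cells, were among the 16 and were picked out after their values were seen.

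The list was not uniform. NRAS, a classical let-7 target, did not pass, with a log2 difference of 0.21 and BH-adjusted p = 0.24 by limma, and MYC did not either at 0.63. Without F replicate 1 NRAS passed, and without FSB replicate 3 MYC did. COL1A2, a collagen gene, and STARD13 were the 2 lower genes, at -1.68 and -1.27. For F_FSB minus FSB, 17 of the 36 were lower and 3 higher, where 28.2% of all genes were lower and 13.7% higher, and the median was -0.43, beside -0.13. The 3 higher genes were FAS, STARD13 and COL1A2, and the FAS call was lost when any library but F_FSB replicate 1 was left out. With no filter on low values the FAS and COL1A2 calls were lost in this comparison, and that of COL1A2 also in FSB minus F. For F_FSB minus F, limma called 0 of the 36, beside 0.00757% of all genes. An unadjusted p under 0.05 was found for 5 of the 36, ACVR1B, CCND2, CDK6, HRAS and MYCN, and for 1195 of all 13216 genes. Proliferation genes moved with these comparisons, and 12 of 12 were higher in FSB than in F and 12 of 12 lower in F_FSB than in FSB by limma. Leaving out each library in turn gave 8 to 12 and 10 to 12 of them, and the scalings gave 10 to 11 and 11 to 12. Their summed level was 269 to 375 FPKM in F_FSB, 718 to 892 FPKM in FSB and 329 to 461 FPKM in F, and their part in the target list's result was not tested.

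**Figure D3:**
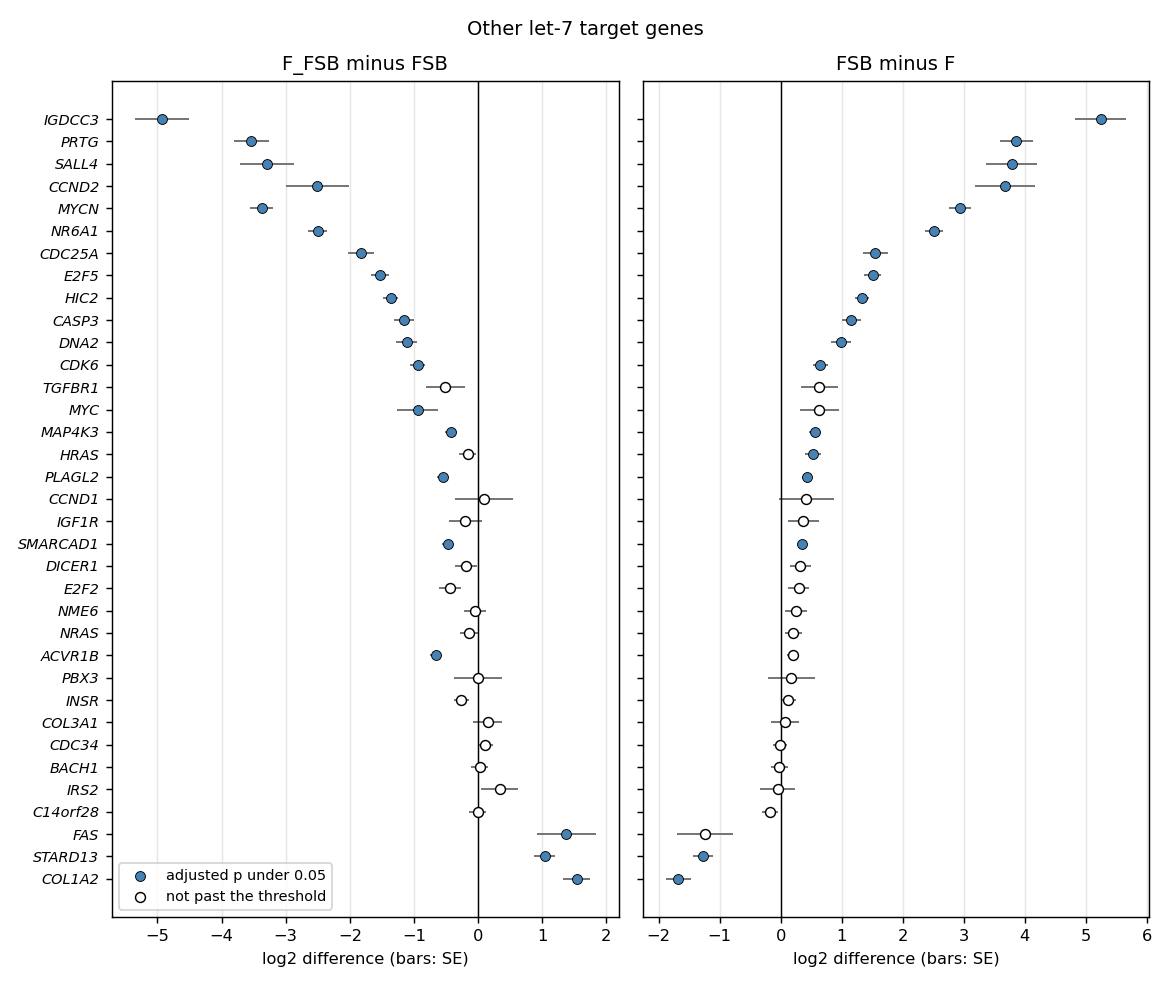
Log2 difference of 35 of the 36 other let-7 target genes (rows, ordered by FSB minus F) for F_FSB minus FSB on the left and FSB minus F on the right, with bars for the standard error and filled points for genes past the adjusted p threshold of 0.05. A group led by IGDCC3 at 5.24 differed strongly, and most genes lie near 0. Of the genes on the other side, COL1A2 and STARD13 passed the threshold for FSB minus F.

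All tested genes were also grouped by the number of 8mers in the 3′ UTR, without a target list. Of 13169 tested genes with 1 locus, 10677 (81.1%) had an annotated 3′ UTR, and the 10 genes above were left out. The median log2 difference for FSB minus F was 0.14 in 8684 genes with no match, 0.14 in 1506 with a match but no 8mer, 0.16 in 459 with 1 8mer and 0.47 in 18 with 2 or more. For F_FSB minus FSB the medians were -0.13, -0.12, -0.16 and -0.44. Of the 18 genes, 11 were higher and 1, B3GNT7, was lower in FSB than in F, and 9 were lower and 1 higher in F_FSB than in FSB, by limma. Leaving out each library in turn gave 9 to 11 called genes, in either direction, in each of these comparisons. Among all 10667 genes with a 3′ UTR, 30.1% were higher and 14.4% lower for FSB minus F, and 29.7% were lower and 14.5% higher for F_FSB minus FSB. Genes with 1 8mer therefore had nearly the same median as genes with none, and the group of 18 is small. Of those 18, 4 are also in the target list, IGDCC3 and NR6A1 among them. FIGN, FIGNL2 and SMC1A, each with 3 8mers and not in the list, had log2 differences of 1.75, 2.00 and 0.95 for FSB minus F. Median 3′ UTR length also differed, at 4155 bases in the 18 genes and 1144 in genes with no match, and the part of UTR length was not tested.

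**Figure D4:**
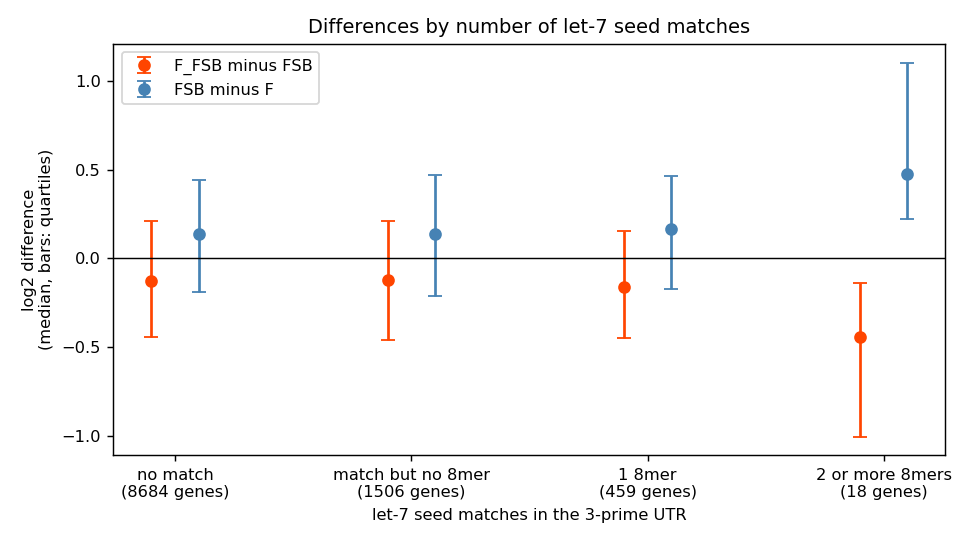
Median log2 difference (points) with quartiles (bars) for genes grouped by let-7 seed matches in the 3′ UTR, for F_FSB minus FSB and FSB minus F, with the number of genes under each group. Medians are near 0.14 and -0.13 in the groups with fewer than 2 8mers, and 0.47 and -0.44 in the 18 genes with 2 or more.

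Enzymes and binding proteins of let-7 processing and turnover made up a list of 23 genes. Of these, 9 were higher and 2 lower in FSB than in F by limma, where 28.5% of all genes were higher and 13.4% lower. For F_FSB minus FSB 9 were lower and 1 higher, where 28.2% of all genes were lower and 13.7% higher. The medians were 0.29 and -0.20, beside 0.14 and -0.13 for all genes. These splits depended on scaling. For FSB minus F, 6 were higher and 4 lower under median-ratio scaling (18.3% and 18.6% of all genes), 5 and 3 under quantile normalization (19.9% and 17.5%) and 5 and 2 under equal-sum scaling (17.3% and 10.8%). For F_FSB minus FSB, 7 were lower and 4 higher under median-ratio scaling (19.1% and 18.95% of all genes), 7 and 3 under quantile normalization (20.8% and 17.5%) and 8 and 0 under equal-sum scaling (26.2% and 8.90%). XPO5, which exports microRNA precursors from the nucleus, averaged 16.0 ± 0.848 FPKM in FSB and 9.23 ± 1.50 FPKM in F (log2 difference 0.74, BH-adjusted p = 0.0022 by limma). KHSRP, which binds let-7 precursors and favours their processing, and PRKRA, a partner of Dicer, were higher by 0.66 and 0.57. DIS3L2, the nuclease that degrades precursors tailed after LIN28 binding, was higher by 0.57, while the tailing enzymes TUT4 and TUT7, listed as ZCCHC11 and ZCCHC6, did not pass, at 0.02 and -0.24. TUT7 passed as lower under median-ratio and quantile scaling. Of the Argonaute genes, EIF2C4, now named AGO4, was higher by 0.67 and EIF2C2, now AGO2, by 0.41, while EIF2C3, now AGO3, was lower, with a log2 difference of -0.43. The AGO2 call was lost under every scaling, and also when FSB replicate 1 or 2, or F replicate 2 or 3, was left out. XRN1, a 5′ exonuclease, was the other lower gene, at -0.48. DICER1, itself a let-7 target and in both lists, did not pass, at 0.32. For F_FSB minus F, limma called 0 of the 23, and XRN1 alone had an unadjusted p under 0.05, beside 1195 of all 13216 genes.

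Host transcripts of let-7 loci were measured, but not the microRNAs, and 5 of 8 listed host genes were found. Of the 12 let-7 loci, 7 lay inside a measured host locus. The 12 hairpin loci are 72 to 119 bases long, and the values listed for them are not read as levels. Of them, 11 were listed at 0 in all libraries and MIRLET7D was above 0 in 3 libraries. MIR100HG, the transcript that spans let-7a-2 on chromosome 11, had 25.6, 28.6 and 46.1 FPKM in F_FSB, 5.50, 6.29 and 8.58 FPKM in FSB, and 36.9, 39.1 and 46.9 FPKM in F. FSB was below every other library, with a log2 difference of -2.44 for FSB minus F (SE 0.23, BH-adjusted p = 0.00026 by limma) and 2.12 for F_FSB minus FSB (BH-adjusted p = 0.00048). LINC00478, which spans let-7c, averaged 2.49 ± 1.04 FPKM in F_FSB, 0.892 ± 0.169 FPKM in FSB and 4.35 ± 1.30 FPKM in F. Its differences were -1.47 and 0.84 (BH-adjusted p = 0.0029 and 0.028 by limma), and the second lost its call when replicate 1 or 2 of either F_FSB or FSB was left out. HUWE1, a ubiquitin ligase gene that spans let-7f-2 and miR-98, was higher in FSB than in F by 0.46 and lower in F_FSB than in FSB, with a difference of -0.59. The first of these calls was lost under every scaling, and also when any F library, FSB replicate 1 or 3, or F_FSB replicate 1 was left out. WDR82, which spans let-7g, did not pass, at -0.00. MIRLET7BHG stayed at or below 0.305 FPKM and was not tested. Both MIR100HG and LINC00478 also hold other microRNAs, so their levels are not a measure of let-7.

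**Figure D5:**
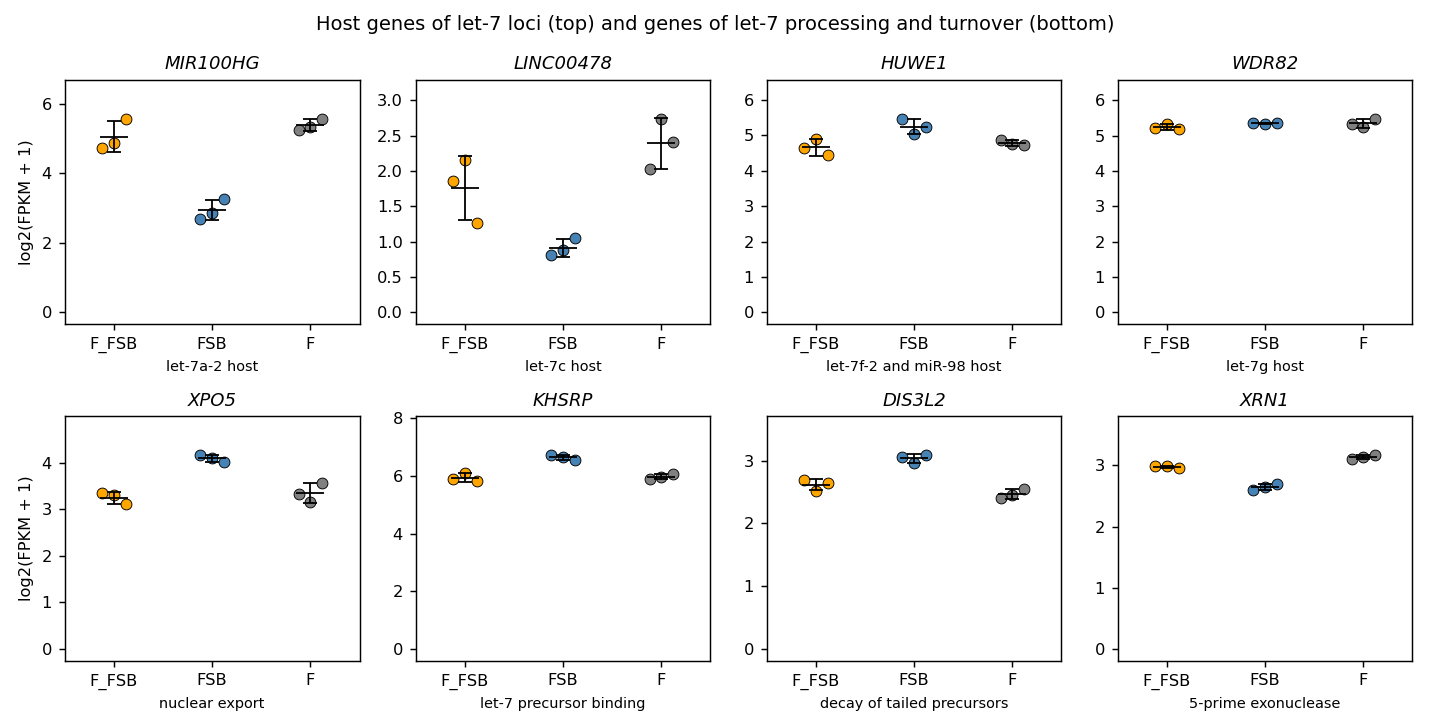
Level in log2(FPKM + 1) by medium for 4 host transcripts of let-7 loci (top) and 4 genes of let-7 processing and turnover (bottom), with points for libraries, a bar for the mean and whiskers for the SD. MIR100HG and LINC00478 are lowest in FSB, WDR82 is level across media, and XPO5, KHSRP and DIS3L2 are highest in FSB by small margins.

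The mRNAs known to be bound by IGF2BP proteins did not share a direction. IGF2, the growth factor mRNA that gave the family its name, varied widely between cultures, with 640.2, 2936 and 4855 FPKM in F_FSB, 158, 127 and 804 FPKM in FSB, and 1303, 6816 and 3695 FPKM in F. It was lower in FSB than in F (log2 difference -3.66, BH-adjusted p = 0.0195 by limma), a call lost when F replicate 2 or 3, or FSB replicate 1 or 2, was left out. CD44, a surface glycoprotein, was lower in FSB than in F as well, at -3.10, and higher in F_FSB than in FSB, at 3.16. MKI67 was higher in FSB than in F by 0.67 (BH-adjusted p = 0.0489 by limma), a call lost without any 1 of 6 libraries, all but FSB replicate 3 and F_FSB replicates 2 and 3, and under every scaling, and ACTB and CTNNB1 did not pass.

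Several cell markers moved with the same comparisons, and their part in the levels of the 10 genes was not tested. LIN28A and LIN28B are also markers of pluripotent cells, whose other defining markers were at or near 0. POU5F1 was at most 1.15 FPKM in F_FSB, 0.141 FPKM in FSB and 0.110 FPKM in F. NANOG was at most 0.247 FPKM in any library and SOX2 at most 0.505 FPKM, and PRDM14, GDF3 and UTF1 were listed at 0 in all 9. The summed level of 12 such markers was 3.40 to 8.46 FPKM in F_FSB, 15.9 to 25.1 FPKM in FSB and 3.97 to 11.8 FPKM in F, most of it from DPPA4, DNMT3B and ZFP42. Of these, DPPA4 and DNMT3B were higher in FSB than in F by limma and ZFP42 did not pass, though it did without F replicate 1 or FSB replicate 1. The DPPA4 call was lost when F replicate 2 or 3 or any FSB library was left out, and under median-ratio or quantile scaling.

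Of 12 neural crest markers, 9 could be tested, and 5 were higher in FSB than in F and 6 lower in F_FSB than in FSB by limma, where 28.5% and 28.2% of all genes were. Their sum was 155 to 167 FPKM in F_FSB, 443 to 489 FPKM in FSB and 171 to 212 FPKM in F. TFAP2A, TWIST1 and ETS1 were well expressed, whereas SOX10 and FOXD3, markers of early crest, were near 0 in nearly all libraries, with SOX10 highest at 1.69 FPKM in FSB replicate 3. Of 10 mesenchymal markers, 7 were lower in FSB than in F and 6 higher in F_FSB than in FSB, where 13.4% and 13.7% of all genes were. The second count was 4 without FSB replicate 1, FSB replicate 2 or F_FSB replicate 2, and 6 without any other library. The sums were 4939 to 6158 FPKM in F_FSB, 733 to 793 FPKM in FSB and 5432 to 6607 FPKM in F. COL1A1 carried most of the sum outside FSB, averaging 4102 FPKM in F_FSB, 176 FPKM in FSB and 3941 FPKM in F. PRRX1, PDGFRB and THY1 did not pass in either comparison. Among 7 central neuroectoderm markers, NES carried nearly all of the sum, which was 22.0 to 43.1 FPKM in F_FSB, 191 to 257 FPKM in FSB and 26.8 to 79.1 FPKM in F, and OTX2 was listed at 0 throughout. Endoderm markers summed to at most 0.397 FPKM in any library.

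The genes most like LIN28A were found by setting each gene's level in the 9 libraries as a percent of its own highest library and averaging the absolute difference from LIN28A. Among 9286 genes, BMP7, a bone morphogenetic protein, was closest at 1.40 percentage points, followed by YPLR6490 at 2.01, the sodium-calcium exchanger gene SLC8A3 at 2.09, CECR2 at 2.41 and the FGF receptor gene FGFR2 at 2.52. BMP7 averaged 0.0988 FPKM in F_FSB, 6.10 FPKM in FSB and 0.00473 FPKM in F. FGFR2 averaged 0.201 FPKM in F_FSB, 5.61 FPKM in FSB and 0.117 FPKM in F. For LIN28B the closest were the lipoprotein lipase gene LPL at 3.19, C3orf52 at 3.21, the adrenergic receptor gene ADRA1D at 3.80, the protocadherin gene PCDH1 at 3.86 and the cystathionine beta-synthase gene CBS at 3.92. LPL, like LIN28B, was higher on average in F_FSB, at 1.31 ± 1.11 FPKM, than in F, at 0.0605 ± 0.0937 FPKM (SD, n = 3 each). This ordering is a description over 9 libraries that share groups, and it carries no test.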

How the data were processed

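RNA was sequenced from 9 cultures, 3 per medium. The deposited values are FPKM per gene from Cufflinks, per the file headers, which the authors normalized within each library. Per the submitters' processing notes, the tools were TopHat2 2.0.12 and Cufflinks 2.1.1, on GRCh37. Fragment counts are not in the tables, so relative depth was estimated from the commonest low FPKM of intronless olfactory receptor genes, and intervals that need counts are not given. Coordinates are 1-based on GRCh37.

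Genes had to have status OK everywhere and reach 1 FPKM in 3 or more libraries, which left 13216. These were fitted as log2(FPKM + 1) with limma 3.58.1 (R 4.3.3), as group means over all 9 libraries with a mean-variance trend. Tests were two-sided with BH adjustment and a threshold of 0.05. The p-values set each difference against the spread between these cultures, estimated over all 3 groups. The fit was tested on simulated data in which equal numbers of genes were raised and lowered. That test therefore does not bear on the choice of scaling. Python 3.11.15, pandas 2.3.3 and matplotlib 3.10.9 joined the tables and drew the figures.

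The 10 genes and all lists were chosen with earlier results of these data known. Named genes were the 10, from each list the 4 tested genes with lowest adjusted p in FSB minus F and in F_FSB minus FSB, and the 5 genes closest to LIN28A and to LIN28B in profile. Closeness was judged among genes with a highest group mean of 5 FPKM or more. Other genes are named to account for a list or to give its exceptions, after their values were seen. The search of 3′ UTRs (the canonical GENCODE transcript per gene) and the grouping by 8mers were added after the tables were seen. Alternatives were pseudocounts of 0.1 and 0.01, other filters and scalings, leaving out each library, a replicate block, fits of the compared groups alone and no trend. The single values of some genes are not reported here, while counts and medians include them.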

Additional observations from a re-analysis of the deposited data

How the results depend on the processing

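The median log2 difference of the 10 genes for F_FSB minus FSB was -2.10 and -2.11 with pseudocounts of 0.1 and 0.01, -1.83 with median-ratio scaling, -1.86 with quantile normalization and -2.07 with equal-sum scaling. For F_FSB minus F it was 0.28 and 0.45 with those pseudocounts. Leaving out each library in turn gave medians of 1.96 to 2.46 for FSB minus F, -2.03 to -1.92 for F_FSB minus FSB and 0.07 to 0.21 for F_FSB minus F. For FSB minus F, 3763 genes were higher and 1773 lower, so that 68.0% of calls were higher, against 49.6% with median-ratio scaling, 53.2% with quantile normalization and 61.6% with equal-sum scaling. Median-ratio scaling shifted the median of all genes by -0.14. Of 23 processing genes, 7 were called in FSB minus F under equal-sum scaling, against 11.

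For F_FSB minus F, limma called 1 gene, GAS1, and 1195 had an unadjusted p under 0.05. Without a filter 2 were called, and leaving out each library gave 0 to 77, the highest without F replicate 1. The cause was not tested. A replicate block left 3261 higher and 1581 lower genes for FSB minus F and called 0 for F_FSB minus F. Same-numbered cultures deviated together in 1 of 9 pairs (correlation of -0.14 to 0.29). With 3 libraries per group, such correlations cannot settle whether the numbers pair the cultures. Values near 0 are limited by counting, and those of LIN28A outside FSB rest on an estimated 2.26 fragments or fewer per library.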
